A study of Mus musculus with 2 samples.

Results

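The EBF1 motif is the DNA pattern to which early B-cell factor 1 and its relatives bind, and it was 1 of 579 motifs counted cell by cell in open chromatin of the developing mouse retina. It was taken as the single motif of that name in each library, and it is the only motif of the EBF family there. The retinas were wild type (WT), at stage E14.5, and were dissociated for droplet single-cell accessibility profiling (10x Genomics), in which a transposase cuts open chromatin. All samples form 1 group of 2 replicate libraries with no treatment or mutant, so the comparisons below are between classes of cells within a library. By its title the series concerns regulatory DNA in the genesis of retinal ganglion cells and their axons. The labels name no strain, sex, litter or animal for either replicate. SDs therefore cover only how far the 2 libraries differ from each other. The p-values of the main tests come from fits that take out this difference. They cover only how far differences between classes of cells vary from library to library. Both kinds of spread may be technical.

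EBF proteins, also called Olf/EBF or COE factors, bind DNA as dimers at an inverted repeat. EBF1 is best known for commitment to the B-cell lineage, but in the embryonic retina Ebf genes are active in newborn neurons, among them ganglion, amacrine, horizontal and bipolar cells. The family members share a highly conserved DNA-binding domain, so a motif count cannot tell them apart. The motif was set beside those of POU4F factors (the Brn3 proteins of ganglion cells), ONECUT factors (ganglion and horizontal cell genesis), proneural basic helix-loop-helix factors (neurogenic precursors), and TEAD, SOX and eye-field homeodomain factors (progenitors). A motif count is the accessibility of all peaks that hold the pattern, not binding by the factor.

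The inverted repeat was searched in RefSeq promoters of mouse build GRCm38.p6 (250 bases before to 50 after a gene's start), to show what such a site looks like. The letters searched were TCCCNNGGGA, which read the same on both strands. They occurred in 297 of 32851 promoters (0.904%). Promoters with the core had a median GC content of 57.3%, against 52.7% without it, and 42.4% against 35.6% of them held the GC box GGGCGG, while 50.5% against 58.1% held TAAT, a core of many homeodomain motifs. For 22 retinal and EBF genes looked up, promoters on 1 chromosome were left out, so a gene without a promoter here need not lack one. Of the 22 genes, 14 had a promoter that was used (15 promoters in all). The letters were in 1 of these, that of Neurod2, a neuronal differentiation factor, and its window at chr11:98329715-98329774 on the minus strand is printed 5′ to 3′ with the core in capitals.
Neurod2 promoter: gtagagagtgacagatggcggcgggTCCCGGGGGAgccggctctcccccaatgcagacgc
The match begins 104 bases before the gene's start. The positions of the peaks behind the EBF1 counts were not used here, so this match is a description of letters and not of a peak. The Ebf genes lie on chromosomes 11 (Ebf1), 14 (Ebf2), 7 (Ebf3) and 2 (Ebf4) in the same build.

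The libraries held 3373212147 counts in 2422 barcodes (replicate 1) and 3932721221 counts in 3033 barcodes (replicate 2). Cells were kept where a barcode had at least 300000 counts and more than the same barcode in the other library, which left 890 (36.7%) and 1051 (34.7%), or 1941 in all. Their median totals were 3519151 and 3523871 counts. The libraries shared 1828 barcodes, and 872 and 925 of the kept cells had such a copy. The copy's median total was 1.77% and 0.789% of the kept one, with a highest value of 84.0% and 4.20%. Leaving out every shared barcode left 18 and 126 shallow cells, with median totals of 499973 and 529884 counts; folds in those cells are given beside the main ones. No doublet caller was run.

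EBF1 was one of the sparser motifs. It received 707452 counts in the kept cells of replicate 1 and 786047 in those of replicate 2, a median of 751 and 734 per cell. As a share of all motif counts this was 0.0213% and 0.0205%, a mean of 0.0209% ± 0.00056 (SD, n = 2). That is about the level of EVX2, DUXA, IRF2 and GATA1::TAL1, the motifs next to it in mean count, and it ranked 401 and 408 of 579 in the respective libraries. The median motif took 0.0412% and 0.0409% of the counts.

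Between cells the EBF1 share varied more than counting noise. In replicate 1 the lowest cell had 0.0125%, the median 0.0212% and the highest 0.0297%. In replicate 2 these values were 0.0101%, 0.0204% and 0.0289%. The 5th and 95th percentiles, 0.0185% and 0.0251% in replicate 1 and 0.0177% and 0.0242% in replicate 2, lay 1.36-fold and 1.37-fold apart. These shares include counting noise and spread more in shallow cells. In 10 equal classes by total counts, the SD between cells was 0.00355% and 0.00351% in the shallowest class of the respective libraries. In the deepest class it was 0.00136% and 0.00115%. In the plot of shares by cell both libraries form a single peak with a longer tail on the right, replicate 2 shifted slightly to the left. The coefficient of variation in excess of counting noise was 8.75% and 8.98%, against 6.19% and 6.27% for the median motif, and ranked 127 and 130. It was 14.0% in the shallow cells without a shared barcode. YY1, TBP and the FOS::JUN pairs FOSB::JUNB and FOSL2::JUND were the motifs next to it in this measure.

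**Figure D1:**
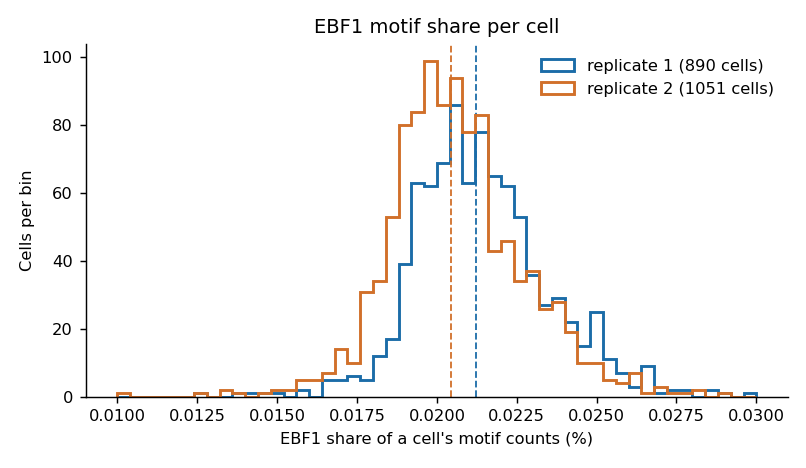
The EBF1 share of a cell's motif counts in percent (x axis) against the number of cells per bin (y axis), with 890 cells of replicate 1 in blue and 1051 of replicate 2 in orange and the medians as broken lines. The medians lie at 0.0212% and 0.0204%.

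Across cells, the EBF1 share varied most closely with MEIS1, SNAI2, MZF1 and Smad4, followed by the POU4F motifs. Likeness was measured as Pearson's r of the depth-corrected log2 share over the kept cells, averaged over the 2 libraries. Cells are not replicates and motifs share peaks, so r is given as a description with no p. Over the 578 other motifs the median r was -0.026, with 5th and 95th percentiles of -0.22 and 0.28. It was above 0 in both libraries for 204 motifs and below 0 in both for 282, and r in one library followed r in the other across motifs (Pearson 0.918). No motif had an r above 0.5 in both libraries and none had the same counts as EBF1.

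MEIS1, a TALE homeodomain factor, had the highest r, 0.50 and 0.50 in the respective libraries. SNAI2, a zinc-finger repressor at E-boxes, followed with a mean of 0.46, MZF1, a zinc-finger factor with a short frequent motif, with 0.45, and Smad4, a mediator of TGF-beta and BMP signals, with 0.45. POU4F1 had 0.45, POU4F3 0.44 and POU4F2 0.40, so that all 3 POU4F motifs stood between ranks 5 and 10. ZNF354C and Myod1 had 0.43 and 0.41. Of the 10 motifs with the highest r, 3 were also among the 10 most frequent motifs of all, and those frequent motifs had a median r of 0.37 with EBF1. Among the 5 lowest values were those of ZNF384 (-0.43), which binds runs of A, the interferon factor IRF1 (-0.36), the forkhead factor FOXO3 (-0.36) and Sox5 (-0.33).

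By list, the POU4F and ONECUT motifs stood on the positive side and the TEAD and most homeodomain motifs on the negative side. The 3 ONECUT motifs were all above 0 in both libraries: ONECUT1 at 0.31, ONECUT3 at 0.19 and ONECUT2 at 0.18. Of 12 proneural motifs 8 were above 0 in both libraries and 4 below 0, with a median of 0.091; Ascl2 (0.37) and NEUROD1 (0.25) were among the highest and BHLHE23 (-0.15) was the lowest. All 4 TEAD motifs, of Hippo signalling, were below 0 in both libraries, between -0.18 for TEAD2 and -0.12 for TEAD1. Of 8 homeodomain motifs 1 was above 0 in both libraries, with a median of -0.10 and LHX9 lowest at -0.28. The 8 SOX motifs went both ways: Sox2 and Sox3 reached 0.22, and SOX8 had -0.16 and Pou5f1::Sox2 -0.20. The TFAP2 motifs of amacrine and horizontal cells had a median of 0.056, with 5 of 9 above 0 in both libraries. The NF-kB and RBPJ motifs, which mark no neuronal class, had a median of 0.15, above the proneural one, with 5 of 6 above 0 in both libraries. The 13 SP/KLF promoter motifs had a median of -0.14, and the lists for microglia, pigment epithelium, and endothelial and erythroid cells had medians of -0.040, -0.036 and 0.063.

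**Figure D2:**
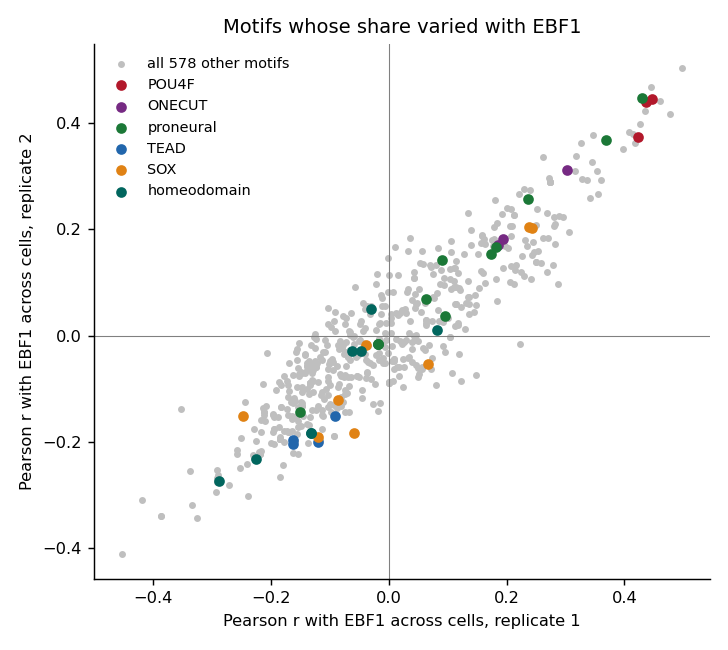
Pearson's r of each of 578 motifs with EBF1 over the kept cells, replicate 1 on the x axis and replicate 2 on the y axis, with the POU4F, ONECUT, proneural, TEAD, SOX and homeodomain motifs coloured. The 3 POU4F motifs lie at the upper right with mean r from 0.40 to 0.45, and the 4 TEAD motifs lie below 0 on both axes.

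Each list was then summed up as a score, the mean of its members' depth-corrected log2 shares in a cell. No score uses EBF1 itself, but motifs in a peak share its cuts. EBF1 counts are therefore not free of the motifs that sort the cells. This holds also for the classes and crossings by score below, and the part of shared peaks was not tested. EBF1 correlated with the POU4F score at a mean r of 0.44 ± 0.0099 (SD, n = 2), while Spearman's rho was 0.26 ± 0.012. For the ONECUT score r was 0.24 and rho 0.19, and for the proneural score 0.17 and 0.16. The TEAD score gave -0.19 and -0.26, the SOX score -0.030 and -0.21, and the homeodomain score -0.15 and -0.32. These r varied with the cells used: with a minimum of 1000000 counts they were -0.27, -0.14 and -0.25, and in the middle of 3 depth classes -0.42, -0.29 and -0.43. The POU4F r was 0.493 and 0.555 in the same cells. The POU4F and ONECUT scores were themselves correlated, at 0.44 in both libraries. With the other 7 scores held constant, EBF1 and POU4F kept a partial r of 0.31 and 0.27, and EBF1 and ONECUT had -0.0075 and -0.0092. The homeodomain score kept -0.21 and -0.19, while SOX was positive (0.069 and 0.036) and TEAD differed in sign between the libraries (0.053 and -0.064). With only the POU4F score held, ONECUT had 0.061 and 0.058 and proneural 0.11 and 0.12. With a score of the 10 most frequent motifs held, POU4F had 0.29 and 0.28 and ONECUT 0.12 and 0.11. Under that control the homeodomain and SOX relations did not stay negative: homeodomain had 0.0034 and 0.00030, and SOX 0.11 and 0.080. The TEAD relation stayed negative in both libraries, at -0.032 and -0.11.

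Among the 25% of cells with the highest POU4F score, 115 of 223 (51.6%) and 124 of 263 (47.1%) were also in the 25% with the highest EBF1 share. A score unrelated to EBF1 would give about 25%. For ONECUT these shares were 42.2% and 48.7%. For proneural they were 28.3% and 30.8%, about the same as the 30.0% and 27.8% of the SP/KLF promoter score. The progenitor lists lay lower, at 17.5% and 17.9% for TEAD, 16.6% and 18.3% for SOX, and 13.9% and 12.9% for homeodomain. Cells were also ranked by EBF1 itself and put in 10 equal classes. The class with the highest EBF1 share exceeded the lowest by a log2 ratio of 0.41 ± 0.0035 (SD, n = 2) for POU4F1, 0.34 for POU4F3, 0.28 for POU4F2 and 0.18 ± 0.038 for ONECUT1. In the same cells ONECUT2 and ONECUT3 differed by 0.048 and 0.038, and BHLHE23 by -0.13 and TEAD2 by -0.086.

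EBF1 accessibility was higher in cells with the most accessible POU4F motifs, and the step lay at the upper end of the scale. Cells of each library were put in 5 equal classes by the POU4F score, class 1 lowest and class 5 highest, and their counts were summed. From class 1 to class 5, EBF1 took 0.0210%, 0.0210%, 0.0209%, 0.0210% and 0.0230% of the counts in replicate 1, and 0.0203%, 0.0202%, 0.0202%, 0.0201% and 0.0224% in replicate 2. The lower 4 classes were level within each library and class 5 stood above them in both. Class 5 against class 1 gave a log2 fold of 0.14 ± 0.0068 (SE; edgeR quasi-likelihood test with the library as a block, Benjamini-Hochberg adjusted p = 6.35e-10). This is rank 12 of 579, where the 3 POU4F motifs are ahead by construction. PKNOX2 (0.15) was next above it, and PROX1 (0.13) and HOXC11 (0.13) were next below. With 3 equal classes in place of 5 the fold was 0.083 (adjusted p = 2.95e-06). In this comparison 70.3% of all motifs passed the threshold, so that passing it is the common case. In the 18 and 126 cells without a shared barcode the fold was 0.083 and was not called (adjusted p = 0.564).

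The steps between neighbouring classes were tested in the same model, a test added after the class values had been seen. Class 5 exceeded class 4 by 0.15 ± 0.0067 (edgeR adjusted p = 1.65e-10; 78.6% of motifs called). The 3 lower steps were -0.0065, -0.0060 and 0.0013, with adjusted p of 0.480, 0.634 and 0.938, where 41.8%, 0.518% and 7.43% of motifs were called. With 10 equal classes the mean share stayed between 0.0204% and 0.0207% up to class 8, and was 0.0215% ± 0.00049 in class 9 and 0.0238% ± 0.00073 in class 10 (SD, n = 2). The curve of EBF1 along the POU4F score is thus flat over most cells and bends upward in the top 2 of 10 classes. Median totals were lower at both ends of the score: from class 1 to class 5 they were 3088360, 3736725, 3664418, 3701823 and 3434053 counts in replicate 1, and 3026917, 3867424, 4219936, 3531251 and 3182016 in replicate 2. Depth thus dropped from class 4 to class 5, where EBF1 stepped up, and its part in the step was not tested. In the middle of 3 depth classes the fold between classes 5 and 1 was at least as large (0.18, adjusted p = 1.89e-07).

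Between the same POU4F classes most motifs of the other lists moved less than EBF1, with ONECUT1 as an exception. The median log2 fold of all motifs was -0.0054, with 170 called higher and 237 lower. All 3 ONECUT motifs were called higher, ONECUT1 by 0.19 and ONECUT2 and ONECUT3 by 0.074 and 0.060. Of 12 proneural motifs 8 were called higher and 1 lower, with Ascl2 (0.13) and NEUROD1 (0.082) among the higher ones. All 4 TEAD motifs were called lower, TEAD2 most (-0.098). MEIS1, SNAI2 and MZF1, whose share followed EBF1 most closely across cells, were higher by 0.055, 0.050 and 0.052. The 6 endothelial and erythroid motifs had a median of 0.0039, the 7 microglial ones -0.0054 and the 4 of pigment epithelium 0.0014.

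Along the ONECUT score the form was the same and the size smaller. The 5 classes had mean shares of 0.0208%, 0.0207%, 0.0206%, 0.0207% and 0.0222%, with 0.0225% and 0.0218% in the highest class of the respective libraries. Class 5 against class 1 gave 0.095 ± 0.0084 (edgeR adjusted p = 9.37e-10; 67.9% of motifs called), rank 31. It was 0.054 with 3 equal classes and 0.15 in the middle of 3 depth classes, called in both (adjusted p = 7.83e-13 and 6.34e-08). Class 5 exceeded class 4 by 0.11 ± 0.0084 (adjusted p = 1.43e-10; 63% called). Without the library as a block the call was lost (0.095, adjusted p = 0.117), as it was in the cells without a shared barcode (0.11, adjusted p = 0.857).

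Along the proneural score EBF1 did not increase steadily. Mean shares from class 1 to class 5 were 0.0206%, 0.0208%, 0.0208%, 0.0215% and 0.0211%, with the highest value in class 4 of each library, at 0.0219% and 0.0210%. Class 5 against class 1 gave 0.035 ± 0.0087 (edgeR adjusted p = 0.00118; 58.9% of motifs called), rank 95, and 0.063 in the middle of 3 depth classes (adjusted p = 0.000205). Class 4 exceeded class 3 by 0.046 (adjusted p = 0.000128; 43.7% called), and class 5 against class 4 gave -0.026 (adjusted p = 0.0214; 31.8% called). With 10 classes, class 8 was highest in both libraries, with a mean of 0.0218% ± 0.00047. Cells with the most accessible proneural motifs thus had an intermediate EBF1 share. The fold of class 5 against class 1 was not called with no block (adjusted p = 0.635) or without shared barcodes (0.17, adjusted p = 0.234).

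The progenitor scores ran the other way, each with its own form. Along the TEAD score the mean share was 0.0220% in class 1, 0.0214% in class 2 and 0.0205%, 0.0205% and 0.0206% in the rest. The first step was -0.043 and the second -0.068 (edgeR adjusted p = 0.000737 and 3.07e-05; 56.8% and 59.2% of motifs called), and class 5 against class 1 gave -0.10 ± 0.0083 (adjusted p = 1.31e-07; 82.9% called). Along the SOX score the shares were 0.0216%, 0.0214%, 0.0209%, 0.0205% and 0.0204%, with a fold of -0.093 ± 0.0073 (adjusted p = 1.84e-07; 86.7% called). Along the homeodomain score, of the eye-field and progenitor factors VSX, RAX, LHX2, LHX9, PAX6 and SIX3, the EBF1 share was lower in each successive class, from 0.0221% through 0.0214%, 0.0208% and 0.0205% to 0.0201%. That fold was -0.13 ± 0.0087 (adjusted p = 1.30e-12; 86% called), rank 565 of 579. EBF1 was thus level over the upper 3 TEAD classes and graded along the homeodomain score. With no block the TEAD and SOX folds were not called (adjusted p = 0.0627 and 0.0857). Without shared barcodes none of the 3 was called: TEAD had -0.016 (adjusted p = 0.883), homeodomain -0.032 (adjusted p = 0.729), and SOX changed sign at 0.027 (adjusted p = 0.838).

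Along the photoreceptor score (CRX, OTX1, OTX2, NRL, RORB) the fold was -0.039 ± 0.010 (edgeR adjusted p = 0.0159; 32.6% of motifs called), with -0.063 in replicate 1 alone and -0.020 in replicate 2 alone. Mean shares from class 1 to class 5 were 0.0215%, 0.0210%, 0.0207%, 0.0207% and 0.0209%, so EBF1 did not decline steadily. The photoreceptor fold was not called with no block (adjusted p = 0.999), and it was 0.089 without shared barcodes (adjusted p = 0.625). Along the SP/KLF score of promoters it was 0.015 ± 0.0086 and was not called (adjusted p = 0.103; 80% called), with 0.0081 in replicate 1 alone, 0.020 in replicate 2 alone and -0.056 without shared barcodes. By total counts, the deepest of 5 classes against the shallowest gave -0.029 ± 0.0092 (adjusted p = 0.0402; 43.5% called), with -0.015 in replicate 1 alone and -0.039 in replicate 2 alone, and was not called with no block (adjusted p = 0.793). From the shallowest class to the deepest, mean shares were 0.0209%, 0.0213%, 0.0212%, 0.0211% and 0.0206%, so the fold between the end classes does not give the full range. The step from class 4 to class 5, the deepest, was -0.038. The part of depth in the folds along the list scores was not tested.

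**Figure D3:**
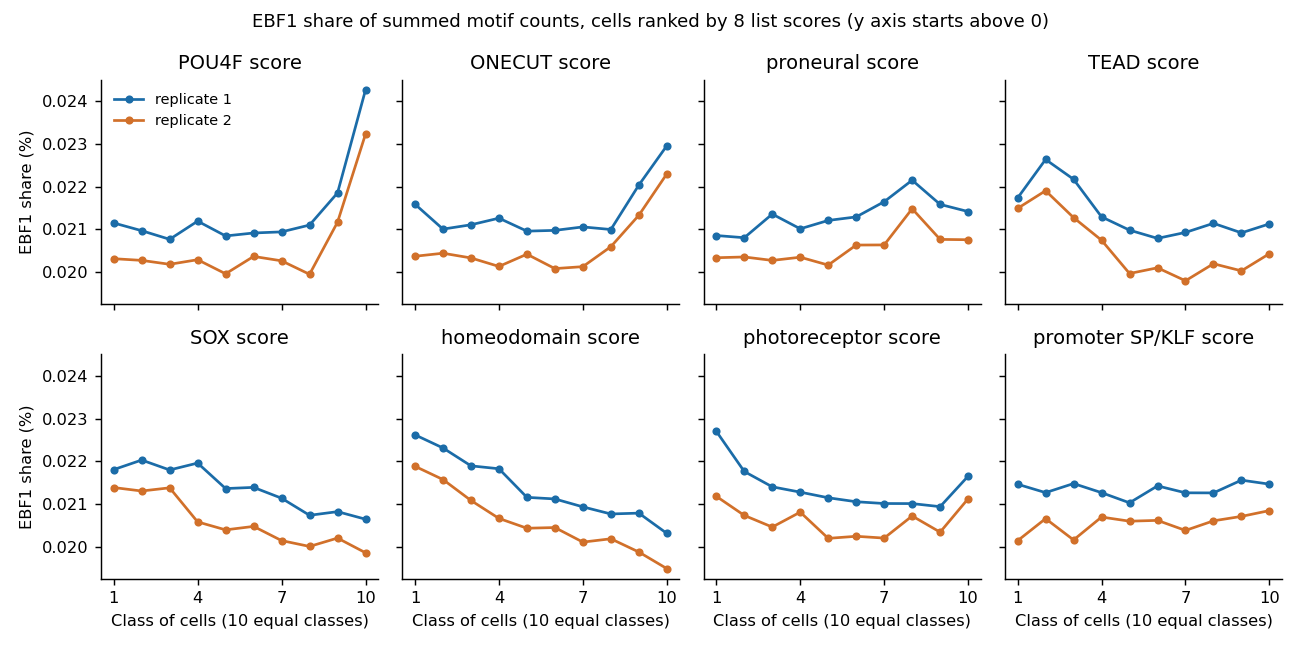
The EBF1 share of summed motif counts in percent (y axis, starting above 0) in 10 equal classes of cells by each of 8 list scores (x axis), with replicate 1 in blue and replicate 2 in orange. Along the POU4F score the mean is 0.0238% in class 10 against 0.0204% to 0.0207% in classes 1 to 8, and along the homeodomain score it declines from 0.0223% to 0.0199%.

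Cells were next crossed by the POU4F and proneural scores, with the top 25% of a library called high. In replicate 1, EBF1 took 0.0209% of counts in 519 cells high in neither, 0.0214% in 148 cells high in proneural alone, 0.0230% in 148 cells high in POU4F alone and 0.0220% in 75 cells high in both. In replicate 2 the values were 0.0201% in 610 cells, 0.0207% in 178, 0.0220% in 178 and 0.0216% in 85. Both libraries gave the same order, with POU4F-high cells that were not proneural-high at the top. Classes cut from a score are ranges and not cell types: 98 cells of replicate 1 and 112 of replicate 2 lay within 0.1 SD of a bound.

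POU4F alone exceeded neither by 0.14 ± 0.0099 (edgeR adjusted p = 1.09e-06; 64.2% of motifs called), and proneural alone by 0.040 ± 0.0099 (adjusted p = 0.00808; 48.7% called). Cells high in both were below those high in POU4F alone, by -0.050 ± 0.010 (adjusted p = 0.00354; 30.4% called), with -0.067 in replicate 1 alone and -0.033 in replicate 2 alone. The test of the difference, the interaction, gave -0.090 ± 0.014 (adjusted p = 0.00349; 30.9% called). The proneural score thus went with a higher EBF1 share where POU4F was not high and with a lower one where it was. The crossing did not hold POU4F level: between both and POU4F alone, all 3 POU4F motifs were called lower (median -0.048), as were all 3 ONECUT motifs (median -0.041), and their part in the EBF1 difference was not tested. With no block only the POU4F fold was called (adjusted p = 0.0405), and the other 3 had adjusted p of 0.594, 0.670 and 0.498. After every cell was thinned to 1000000 counts, the difference between both and POU4F alone was -0.034 and was not called (adjusted p = 0.0760). With high as the top 20%, that difference was -0.11 and the interaction -0.15 (adjusted p = 1.29e-12 and 1.94e-11).

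Crossed with ONECUT, the order was different. In replicate 1, EBF1 took 0.0209% in 562 cells high in neither, 0.0213% in 105 high in ONECUT alone, 0.0223% in 105 high in POU4F alone and 0.0230% in 118 high in both. In replicate 2 the values were 0.0201% in 657 cells, 0.0207% in 131, 0.0211% in 131 and 0.0227% in 132. Cells high in both were the highest class in each library. POU4F alone exceeded neither by 0.082 ± 0.011 (edgeR adjusted p = 1.95e-05; 48.5% of motifs called), ONECUT alone by 0.033 ± 0.011 (adjusted p = 0.0221; 52.5% called), and both exceeded POU4F alone by 0.086 ± 0.011 (adjusted p = 1.91e-05; 46.5% called), with 0.055 in replicate 1 alone and 0.12 in replicate 2 alone. In that last comparison all 3 POU4F motifs were themselves called higher (median 0.13, from 0.10 to 0.16), and their part in the EBF1 difference was not tested. With high as the top 20%, POU4F alone exceeded neither by 0.13 (adjusted p = 2.93e-12). The interaction was 0.054 ± 0.016 (adjusted p = 0.0143; 34.7% called), with 0.028 in replicate 1 alone and 0.076 in replicate 2 alone, and the median of the 3 POU4F motifs in the same interaction was 0.12. It was not called with high as the top 20% (0.015, adjusted p = 0.427) or after thinning (0.033, adjusted p = 0.231), and with no block none of the 4 was called (adjusted p = 0.292, 0.745, 0.256 and 0.831).

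**Figure D4:**
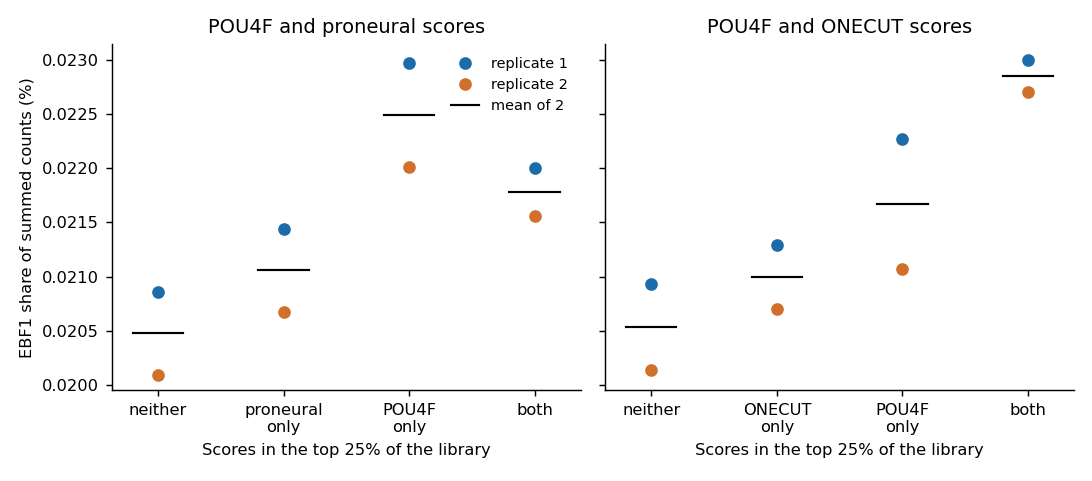
The EBF1 share of summed counts in percent (y axis, starting above 0) in cells crossed by POU4F and proneural scores (left) and by POU4F and ONECUT scores (right), with a point for each replicate and a bar for their mean. POU4F alone is highest on the left, at 0.0230% and 0.0220%, and both is highest on the right, at 0.0230% and 0.0227%.

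Cells were also clustered on all other motifs, with EBF1 left out, which gave 6 clusters present in both libraries. Motifs in a peak share its cuts, so EBF1 counts are not free of the motifs that made the clusters, and the part of shared peaks was not tested. EBF1 differed among the clusters over a log2 range of 0.22 (edgeR adjusted p = 2.96e-08), as did 97.8% of motifs. The range follows the fineness of the clustering: it was 0.14 at Leiden resolution 0.3 and 0.28 at 1.0, against 0.5 in the clustering described. From high to low, the clusters were numbers 3, 5, 6, 4, 1 and 2. Cluster 3 (129 and 154 cells) had the 3 POU4F motifs, ONECUT1 and PROX1 among its 10 motifs of highest fold and is called ganglion cell-like. Cluster 4 (132 and 139 cells), led by NEUROD1, NEUROD2, Neurog1 and Atoh1, is called neurogenic-like. The other 4 had too few markers of a single list to be named, and no cluster had pigment epithelium or endothelial and erythroid motifs among its 10 highest. Clusters 1 and 2 had 1 motif of the microglia list there, CEBPA. Cluster 6 had a mean pigment epithelium score of 1.47 and 1.50 SD, where the other clusters lay between -0.48 and 0.38. Its mean SP/KLF promoter score was higher still, at 1.71 and 1.74 SD, and its TFAP2 score was 1.31 and 1.30 SD. Its photoreceptor score, 0.65 and 0.56 SD, was the highest of all clusters, and Crx was among its 10 highest motifs. Its score for a list of horizontal and amacrine cell motifs was 0.69 and 0.64 SD, where cluster 3 had 0.63 and 0.68 SD. Its TEAD, SOX and homeodomain scores lay between -1.35 and -1.14 SD. The part of these lists in its EBF1 share was not tested.

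EBF1 took 0.0235% and 0.0228% of counts in ganglion cell-like cluster 3, which was above the mean of the others by 0.16 ± 0.0083 (edgeR adjusted p = 1.65e-08; 74.4% of motifs called), rank 7 of 579. Clusters 5 and 6 followed with 0.0221% and 0.0210%, and 0.0218% and 0.0210%. Cluster 5 had the highest mean TEAD score of all clusters in both libraries, 0.62 and 0.54 SD, and a SOX score of 0.24 and 0.25 SD. From cluster to cluster, EBF1 was thus not always lower where the TEAD score was higher. Clusters next to each other in the order by EBF1 were then compared, here and in the next paragraph. The EBF1 levels themselves set these pairs and the sign of each fold, so their p are no independent test of the order. Cluster 3 exceeded cluster 5 by 0.11 ± 0.011 (adjusted p = 3.74e-06; 79.6% called), while clusters 5 and 6 did not differ beyond their spread (0.0093 ± 0.011, adjusted p = 0.448; 85.5% called). Both stand apart in depth: cluster 5 had 1.27 and 1.29 times the median total of its library, and cluster 6 had 0.603 and 0.672 times; the part of depth in their EBF1 share was not tested. Against the mean of the others cluster 5 gave 0.028 (adjusted p = 0.0102; 76.3% called) and cluster 6 gave 0.017 (adjusted p = 0.0910; 85.8% called).

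Neurogenic-like cluster 4 had 0.0213% and 0.0206%, -0.020 from the mean of the others and not called (edgeR adjusted p = 0.0562; 63.2% of motifs called), and was below cluster 6, which exceeded it by 0.031 (adjusted p = 0.0240; 80.5% called). Cluster 1, the largest with 246 and 283 cells, had 2 of the 4 TEAD motifs among its 10 highest and an EBF1 share of 0.0208% and 0.0198%. Its mean TEAD score, 0.37 SD in both libraries, was below those of clusters 2 and 5. Cluster 4 exceeded cluster 1 by 0.043 (adjusted p = 0.00637; 53.9% called), and cluster 1 was -0.072 from the mean of the others (adjusted p = 3.03e-05; 61.1% called). Cluster 2, with Sox1, SOX8 and SOX4 among its 10 highest, of which SOX8 alone is in the SOX list, was lowest at 0.0201% and 0.0197%. It was -0.11 from the mean of the others (adjusted p = 2.46e-07; 81.9% called), and cluster 1 exceeded it by 0.032 (adjusted p = 0.0231; 62% called). By mean share the order of levels was ganglion cell-like, then the unnamed clusters 5 and 6, then neurogenic-like, then clusters 1 and 2.

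**Figure D5:**
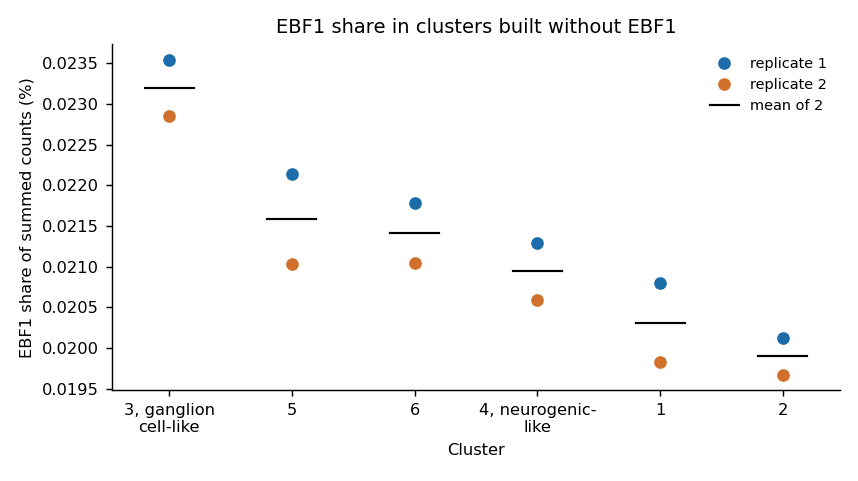
The EBF1 share of summed counts in percent (y axis, starting above 0) in 6 clusters built without EBF1 (x axis, in order of their mean), with a point for each replicate and a bar for the mean. Cluster 3, ganglion cell-like, lies at 0.0235% and 0.0228%, above the other clusters in both libraries, and cluster 2 is lowest.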

How the data were processed

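Single-cell accessibility was measured in 2 libraries of wild-type retina at stage E14.5. The authors deposited, per the file headers, whole-number counts of 579 motifs by barcode written by software version 1.1.0. Per the submitters' processing notes, the tool was Cell Ranger and the build mm10; settings of peak calling and motif search: not given in the sources used here. In matrices of this kind a cut in a peak counts for every motif in that peak, so totals exceed the cuts.

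Cells were filtered as described above. Shares were log2((count + 0.5)/total) with depth regressed out per library, and list scores were scaled per library. Counts summed per library and class were tested with edgeR 4.0.16 (R 4.3.3): quasi-likelihood F test, TMM, Benjamini-Hochberg over 579 motifs, threshold 0.05. The library was a block, since all classes come from both libraries. The negative binomial dispersion was fixed at 0.0002 after the data were seen: at the estimated 9.77e-05, EBF1's residual deviance came out as 2408, against 0.734 at 0.0002. Clustering used scanpy 1.11.5 and igraph 0.11.9 (15 components, 20 neighbours, Leiden resolution 0.5). On simulated data the fit was checked for known folds. Alternatives included DESeq2 1.42.0, other cell filters, thinning, no TMM and leaving out a library.

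Named motifs were EBF1, all POU4F and ONECUT motifs, up to 4 with the largest effect of the other lists, the 10 highest and 5 lowest by r, and rank neighbours. The motif and the lists were chosen with earlier results of these data known. SIX6, PTF1A, LHX1, FOXN4 and SOX18 of the lists matched no motif. Some motifs that the rule names are not reported here.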

Additional observations from a re-analysis of the deposited data

Results flagged for a closer look

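The effect of the proneural score on EBF1 differed between cells with and without a high POU4F score. The interaction was -0.090 on the log2 scale (edgeR adjusted p = 0.00349), with -0.11 in replicate 1 alone and -0.072 in replicate 2 alone. The effect of the ONECUT score differed in the opposite direction, with an interaction of 0.054 (edgeR adjusted p = 0.0143). Neither was called with no replicate block.

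The 1532 and 1982 barcodes that were not kept also held EBF1 counts, 12358 and 21924. Their EBF1 share was 0.0214% in replicate 1 and 0.0205% in replicate 2, against 0.0213% and 0.0205% in the kept cells. These barcodes had median totals of 28508 and 37400 counts, and every barcode found in both libraries has at least 1 copy among them.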

How the results depend on the processing

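Of 145 alternatives with a test, over 18 results, 116 stayed on the same side of the threshold with the same sign, 23 lost the call, 2 gained it and 4 changed sign. A further 55 alternative values have no test, and 11 of them moved by more than the replicate spread. Values of a single library were among the 55 and were set against the spread of the same libraries. They had little room to count as moved, so the count of 11 is no measure of stability. The fold along the POU4F score was called in every alternative with a test except without shared barcodes, and EBF1 differed among clusters in each one run that changed the clustering or the test. Leaving out motifs correlated with EBF1 above 0.5 removed 0 motifs and is not counted. Clustering without shared barcodes was not run, with too few cells. The cause of each change was not tested.

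With no replicate block the lost calls were ONECUT 0.095, proneural 0.035, TEAD -0.10, SOX -0.093, photoreceptor -0.039 and depth -0.029; proneural alone 0.040, both against POU4F alone -0.050 and their interaction -0.090; and with ONECUT crossed, POU4F alone 0.082, ONECUT alone 0.032, both against POU4F alone 0.086 and the interaction 0.054. The block changed no other call.

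Without shared barcodes the folds were POU4F 0.083, ONECUT 0.11, proneural 0.17, TEAD -0.016, SOX 0.027, homeodomain -0.032, photoreceptor 0.089, SP/KLF -0.056 and depth -0.027, the excess variation was 14.0% and r with the POU4F score 0.488. The SP/KLF fold was -0.00059 at a minimum of 1000000 counts, and called without TMM (0.017) and in the middle of 3 depth classes (0.030); depth without TMM was -0.022 and not called. Excess variation was 8.15%, 7.93% and 8.14%, and r 0.493, 0.404 and 0.555, at that minimum, after thinning and in that depth class. Thinning gave -0.034 for both against POU4F alone (proneural) and 0.033 for the ONECUT interaction, which was 0.015 with high as the top 20%.

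A single library allows no test. Leaving out 1 library gave SOX folds from -0.095 to -0.085, homeodomain folds from -0.13 to -0.12 and proneural-alone folds from 0.039 to 0.043.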
